A study of Rattus norvegicus with 12 samples.

Results

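The 10 genes described here are the rat Toll-like receptor and inflammasome genes Tlr2, Tlr3, Tlr4, Tlr7, Myd88, Nfkb1, Nfkbia, Nlrp3, Pycard and Casp1. They were taken by symbol from a deposited table of estimated read counts that holds 18800 gene symbols, and all 10 were found and passed the expression filter. Bulk RNA sequencing was done on brain tissue of Sprague-Dawley rats, with no region, side or time after the operation named. Rats of the electroacupuncture group had the MCAO/R model (middle cerebral artery occlusion followed by reperfusion, which closes and reopens a large artery of the brain), were bundled, and received needle current at the Tianfu, Chize, Kongzui and Taiyuan acupoints of the Lung Meridian. Rats of the model group had MCAO/R and were bundled for as long, without needle current. Control rats were only bundled; the matching columns carry the word sham, but the labels record no operation for this group. The study's title asks about synaptic plasticity after cerebral ischemia-reperfusion. Bundling was common to all groups, and no labelled group was needled without MCAO/R.

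Toll-like receptors recognise microbial molecules and molecules released by damaged cells. TLR2 and TLR4 act at the cell surface and TLR3 and TLR7 in endosomes, where they bind RNA. MyD88 carries the signal of all of these receptors except TLR3, and the chain ends in the release of NF-kB from its inhibitor IκBα, the product of Nfkbia. The inflammasome is a complex of the sensor NLRP3, the adaptor ASC (gene Pycard) and the protease caspase-1, which cleaves the precursors of interleukin-1 beta and interleukin-18. In brain, microglia are the main site of expression of many of these genes, and the pathway is widely studied as part of the inflammation that follows stroke.

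Of the 11 columns, 3 pairs from the same group were almost as alike as sampling allows: per gene, their squared difference had a median of 1.34 to 1.40 times the sampling variance, against 4.74 to 26.5 in the other 12 pairs within a group. Each such pair was summed and counted as 1 sample, which left 3 electroacupuncture samples (A to C), 2 model samples (A and B) and 3 controls (A to C). On the same measure, the 40 pairs of columns from different groups were at 3.64 to 29.4. Electroacupuncture C was closer to every control (3.64 to 6.14) than to the columns of electroacupuncture B (7.63 and 7.73). The columns of electroacupuncture B were at 4.35 to 5.27 with controls A and C, and at 8.66 and 9.1 with control B. Electroacupuncture A was far from both its own group (24.6 to 26.5) and the controls (25.7 to 29.4). The letters only name samples, and total counts ran between 9335913 and 23835724 per sample. No label says that the samples are separate animals; the p-values therefore measure only how far these samples spread, which may be technical. Region markers differed between samples: summed striatal markers (CPM, counts scaled by library size with TMM factors) reached 4744 CPM in electroacupuncture A and stayed between 146 and 703 CPM in the remaining 7 samples. Summed hippocampal markers were at 180 to 560 CPM in electroacupuncture, 177 to 193 CPM in the model and 598 to 755 CPM in controls. Of 12 blood leukocyte markers 11 were in the table and 7 stayed at or under 1 CPM in every sample. The 11 summed to 7.81 to 15.8 CPM in electroacupuncture, 5.86 to 8.41 CPM in the model and 14.8 to 37.9 CPM in controls. In controls the T cell gene Cd3e alone reached 29.4 CPM. The T cell genes Cd3d and Cd8a reached at most 0.092 and 0.367 CPM there. Summed levels of 14 microglial markers, each above 1 CPM in at least 1 sample, were 1176, 442 and 396 CPM in electroacupuncture A, B and C, 868 and 545 CPM in model samples A and B, and 303, 313 and 396 CPM in controls A, B and C. In bulk tissue, more cells of a type and more RNA per cell cannot be told apart.

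The promoters of Nfkbia and Nfkb1 are shown because they hold the kB motif, the letters that NF-kB binds, in genes that encode its own inhibitor and subunit. The motif GGANTTTCC was searched on both strands in the RefSeq promoter windows of build GRCr8, which run 250 bases before to 50 bases after each gene's start (300 bases). It occurred in 2 of the 10 genes and in 1.28% of all 33469 windows. Capitals mark the matches, and each sequence is given 5′ to 3′ on the strand of its gene. The Nfkbia stretch, the 250 bases before its start, lies at chr6:78597073-78597322 on the minus strand and holds a sense match at bases -180 to -172 and an antisense match at bases -31 to -23. The Nfkb1 stretch lies at chr2:226805440-226805468 on the minus strand, with a sense match at bases 5 to 13 after the start.
Nfkbia: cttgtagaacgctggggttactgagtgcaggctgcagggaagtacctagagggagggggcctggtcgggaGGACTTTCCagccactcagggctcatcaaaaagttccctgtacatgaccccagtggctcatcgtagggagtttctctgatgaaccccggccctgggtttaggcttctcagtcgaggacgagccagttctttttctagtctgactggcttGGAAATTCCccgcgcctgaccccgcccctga
Nfkb1: gacgtcagtgGGAATTTCCagccaggaag
A match describes these letters only. The levels of the genes peaked in different samples: Nfkbia was highest in model B and Nfkb1 in model A. In both genes, both model samples were above all controls. On the log2 scale over the control mean, electroacupuncture A, B and C were at 1.42, -0.03 and 1.67 for Nfkbia. For Nfkb1 they were at 0.36, -0.01 and 0.27. The part of the motif in these levels was not tested. An interferon-type motif, GAAANNGAA, occurred in the windows of Nfkbia, Myd88 and Casp1 and in 9.71% of all windows on either strand.

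The endosomal receptor Tlr7, a sensor of single-stranded RNA, was the receptor whose model and control samples did not overlap. Its level was 11.5, 4.04 and 4.11 CPM in electroacupuncture A, B and C, 10.9 and 7.45 CPM in model samples A and B, and 3.94, 2.61 and 3.39 CPM in controls A, B and C. Both model samples were above all controls, and electroacupuncture A was near model A while electroacupuncture B and C lay just above the highest control. The log2 fold change of the model over control was 1.47 ± 0.51 (SE), which did not pass (edgeR quasi-likelihood test, Benjamini-Hochberg adjusted p = 0.273, unadjusted p = 0.0210). In a fit without electroacupuncture A, in which edgeR called 565 of 15275 genes, the estimate was 1.46 and passed (edgeR adjusted p = 0.0433). Electroacupuncture over model gave -0.49 ± 0.50 with all samples (edgeR adjusted p = 0.744). Leaving out electroacupuncture A moved it to -1.17 ± 0.32 (edgeR adjusted p = 0.125), and no electroacupuncture sample then overlapped the model. The estimate of electroacupuncture over control was 0.98 ± 0.47 on the log2 scale (edgeR adjusted p = 0.843), and 0.29 ± 0.30 without sample A.

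Tlr3, a sensor of duplex RNA that signals through TRIF, had its highest level in the same sample. It stood at 11.3, 4.17 and 2.85 CPM in electroacupuncture A, B and C, at 6.64 and 2.74 CPM in model samples A and B, and at 1.83, 1.71 and 3.39 CPM in controls A, B and C. The highest control was above model B and electroacupuncture C, so neither group was clear of the controls. The estimate over control was 1.39 ± 0.62 in electroacupuncture (log2, edgeR adjusted p = 0.843, unadjusted p = 0.0569) and 1.02 ± 0.67 in the model (edgeR adjusted p = 0.529). The electroacupuncture estimate was 0.61 ± 0.50 without electroacupuncture A, and the model estimate was 0.24 ± 0.81 without model A.

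The surface receptors were low and showed no separation of groups. Tlr2, which recognises lipopeptides as a partner of TLR1 or TLR6, was at 4.34, 3.83 and 1.05 CPM in electroacupuncture A, B and C, 2.68 and 2.19 CPM in model samples A and B, and 1.92, 0.909 and 3.21 CPM in controls A, B and C. The model samples lay inside the control range, and the log2 fold change of the model over control was 0.26 ± 0.68 (edgeR adjusted p = 0.886). Tlr4, the endotoxin receptor, was at 1.13, 1.28 and 0.316 CPM in electroacupuncture A, B and C, 1.98 and 0.821 CPM in model samples A and B, and 0.642, 1.02 and 0.641 CPM in controls A, B and C. Model A was the highest sample and the groups overlapped, and the model estimate of 0.87 ± 0.67 over control on the log2 scale did not pass (edgeR adjusted p = 0.584) and was 0.10 ± 0.85 without model A. Its rounded counts lay between 3 and 37 per sample, so counting error adds to its spread. The estimate of electroacupuncture over model was 0.35 ± 0.67 for Tlr2 and -0.58 ± 0.65 for Tlr4 on the log2 scale (edgeR adjusted p = 0.879 for Tlr2 and 0.768 for Tlr4).

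Myd88, the adaptor shared by most of these receptors, was at 11.6, 6.80 and 4.11 CPM in electroacupuncture A, B and C, at 7.07 and 5.09 CPM in model samples A and B, and at 5.04, 6.59 and 5.50 CPM in controls A, B and C. Electroacupuncture held both its highest and its lowest sample. The model averaged 6.08 ± 1.40 CPM (SD, n = 2) and controls 5.71 ± 0.798 CPM (SD, n = 3), a log2 fold change of 0.09 ± 0.43 (edgeR adjusted p = 0.939). In the annotation Myd88 overlaps Acaa1a, and the use of strand in counting was not given in the sources used here, which leaves the split of reads between the pair uncertain.

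**Figure D1:**
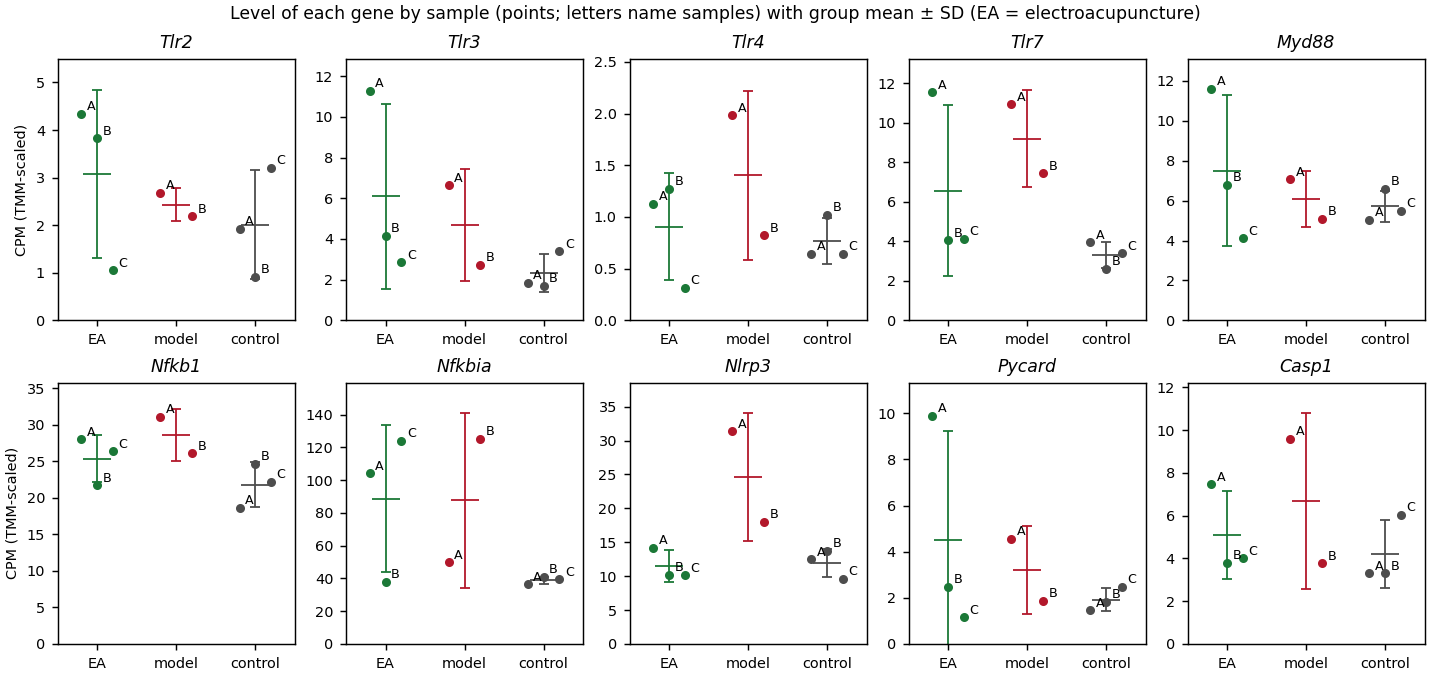
Level of each of the 10 genes in CPM (y axis, linear, own scale per gene) in electroacupuncture (EA), model and control; points are samples with their letters, horizontal bars are group means and whiskers SD (n = 3, 2 and 3; a whisker below 0 is not drawn). Tlr7, Nfkb1, Nfkbia and Nlrp3 show both model samples above all controls, and EA A is the highest point for Tlr2, Tlr3, Tlr7, Myd88 and Pycard.

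The inhibitor gene Nfkbia, itself a target of NF-kB, showed high and low samples within both operated groups. It stood at 104.1, 38.01 and 124.1 CPM in electroacupuncture A, B and C, at 49.8 and 125.3 CPM in model samples A and B, and at 36.5, 40.8 and 39.5 CPM in controls A, B and C. Electroacupuncture A, electroacupuncture C and model B were 1.42, 1.67 and 1.69 above the control mean on the log2 scale, model A was slightly above the controls and electroacupuncture B was among them. The SD was 45.1 CPM in electroacupuncture (n = 3) and 53.4 CPM in the model (n = 2), against 2.22 CPM in controls (n = 3). The model and controls did not overlap, with a log2 fold change of 1.17 ± 0.51 (edgeR adjusted p = 0.369, unadjusted p = 0.0538), which was 1.68 ± 0.52 without model A (edgeR adjusted p = 0.239) and 0.35 ± 0.55 without model B (edgeR adjusted p = 0.784). Electroacupuncture over control was 1.19 ± 0.47 (edgeR adjusted p = 0.843, unadjusted p = 0.0377), although sample B overlapped the controls. Between electroacupuncture and model the estimate was 0.02 ± 0.52 (edgeR adjusted p = 0.994), and it turned to -0.20 with every column entered as a separate library.

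Nfkbia was high in a sample where other members were low. Electroacupuncture C, where Nfkbia was near its maximum, held the lowest value of Tlr4, Myd88 and Pycard. Over 14811 genes whose mean reached 1 CPM, the genes nearest to Nfkbia in pattern were RT1-O1, Maff and Tmem252, with a root mean square difference of 0.26, 0.32 and 0.34 in log2(CPM + 1) after each gene was centred, over 8 samples. RT1-O1 lay between 0.161 and 3.01 CPM, where adding 1 shrinks differences. Its model A value of 0.161 CPM was below all controls (0.341 to 0.367 CPM), unlike that of Nfkbia. Maff, a small Maf transcription factor gene, was at 6.42, 0.553 and 4.85 CPM in electroacupuncture A, B and C, at 2.79 and 4.93 CPM in model samples A and B, and at 1.10, 2.16 and 1.37 CPM in controls A, B and C. As for Nfkbia, electroacupuncture A and C and model B were its 3 highest samples. Nfkbia and Nlrp3 were singled out for this search after their values were seen.

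Nfkb1, which encodes the p105 precursor of the NF-kB subunit p50, varied least of the 10 genes, with 1.67 times between its highest and lowest sample. It was at 28.0, 21.7 and 26.4 CPM in electroacupuncture A, B and C, at 31.1 and 26.1 CPM in model samples A and B, and at 18.6, 24.7 and 22.2 CPM in controls A, B and C. Both model samples lay above all controls by a small margin, a log2 fold change of 0.39 ± 0.19 (edgeR adjusted p = 0.409, unadjusted p = 0.0749). Electroacupuncture overlapped both groups, at -0.17 ± 0.19 over the model (edgeR adjusted p = 0.762) and 0.22 ± 0.17 over control (edgeR adjusted p = 0.843).

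Nlrp3, the inflammasome sensor, was the member with the smallest p in both comparisons that involve the model. It was at 14.1, 10.2 and 10.1 CPM in electroacupuncture A, B and C, at 31.4 and 18.0 CPM in model samples A and B, and at 12.5, 13.8 and 9.62 CPM in controls A, B and C. Both model samples were above every sample of the other groups, and electroacupuncture and control samples overlapped. The mean was 11.5 ± 2.30 CPM in electroacupuncture (SD, n = 3), 24.7 ± 9.43 CPM in the model (SD, n = 2) and 11.9 ± 2.12 CPM in controls (SD, n = 3). The model was 2.07-fold over control, a log2 fold change of 1.05 ± 0.29 that missed the threshold in edgeR (adjusted p = 0.197, unadjusted p = 0.00788) and passed in DESeq2 (adjusted p = 0.0461). Electroacupuncture was at 0.465 of the model, a log2 fold change of -1.10 ± 0.29 (edgeR adjusted p = 0.190, unadjusted p = 0.00595, DESeq2 adjusted p = 0.0327). Electroacupuncture over control was -0.06 ± 0.27 (edgeR adjusted p = 0.965). With every column entered as a separate library, which counts near-identical columns as separate samples, edgeR's adjusted p was 0.0416 for model over control and 0.0168 for electroacupuncture over model. Both differences rested more on model A than on model B: without model A they were 0.59 ± 0.30 over control (edgeR adjusted p = 0.529) and -0.65 ± 0.30 for electroacupuncture over model (edgeR adjusted p = 0.435), where the lone model sample is assumed to vary like the other groups.

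The deposited values of Nlrp3 were of another kind than those of the other members. They carried decimals in all 11 columns, whereas 8 of the 10 genes had whole numbers in all 11 and Tlr7 in 8. The rule behind fractional counts was not given in the sources used here. In the pair of model columns that were summed to model A, which were nearly as alike as sampling allows, Nlrp3 had 250.7 and 334.4 estimated counts. The 3 genes nearest to Nlrp3 in pattern were Mapk12, which encodes a p38-family kinase, Ints7, which encodes an Integrator subunit, and Il1rn, which encodes the interleukin-1 receptor antagonist. Their differences were 0.08, 0.12 and 0.13 in the same log2 measure over 8 samples, and all 3 also had fractional values in all 11 columns. Mapk12 was at 14.1, 8.50 and 9.91 CPM in electroacupuncture A, B and C, 28.4 and 16.3 CPM in model samples A and B, and 12.5, 13.5 and 8.80 CPM in controls A, B and C. As for Nlrp3, model A was the highest sample and model B the second.

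Group overlap was counted separately for genes with fractional and with whole values. Among the 3372 tested genes that were fractional in every column, 21.9% had every electroacupuncture sample below every model sample and 9.28% had every one above. Among the 9373 tested genes that were whole in every column, those shares were 7.68% and 14.6%. For model against control, 23.8% of fractional genes had every model sample above every control and 13.6% had every one below, against 15.8% and 22.3% of whole-number genes. In both comparisons the direction of Nlrp3 was the more frequent one among fractional genes. The difference between the classes was not tested, since genes are not independent, and the part of the way values were estimated in the Nlrp3 result was not tested. In the GRCr8 annotation, Nlrp3 overlaps the locus LOC134480694, which is named here for its position only.

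**Figure D2:**
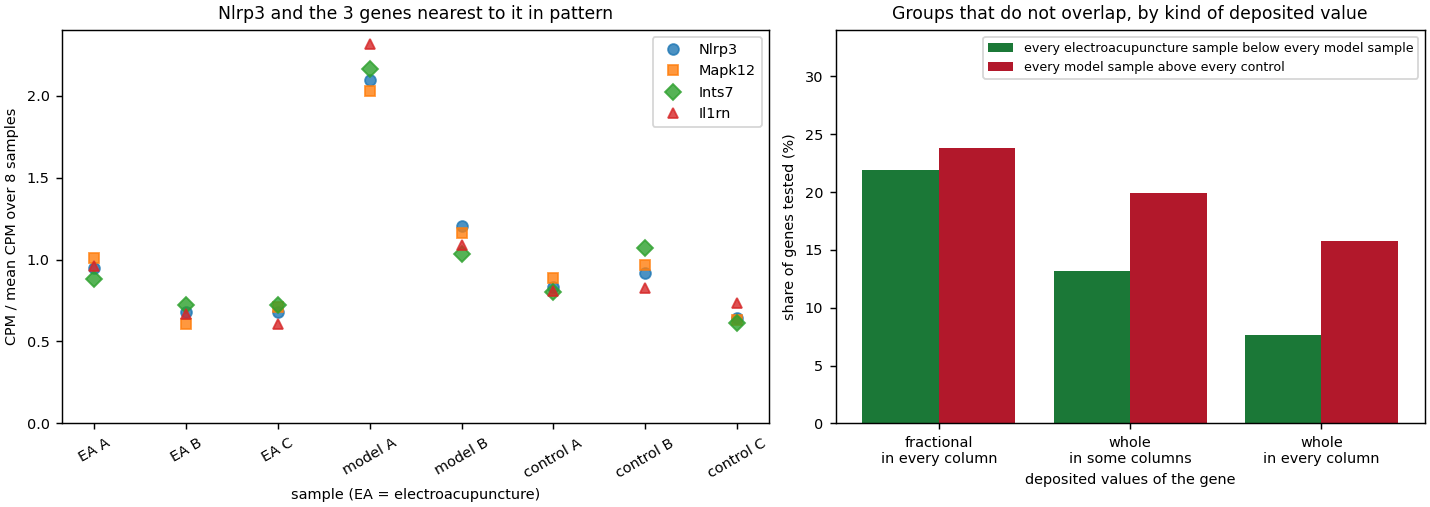
Left, level of Nlrp3 and of the 3 genes nearest to it, each divided by its own mean over 8 samples (y axis, linear) by sample (x axis); right, percent of genes tested whose groups do not overlap (y axis), by whether deposited values were fractional or whole. Model A is the highest sample for all 4 genes and model B the second for all but Ints7, where control B is slightly higher; the share with every electroacupuncture sample below every model sample is 21.9% for fractional and 7.68% for whole-number genes.

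The other inflammasome genes spread too widely within groups to be told apart. Pycard was at 9.89, 2.47 and 1.16 CPM in electroacupuncture A, B and C, at 4.55 and 1.86 CPM in model samples A and B, and at 1.47, 1.82 and 2.47 CPM in controls A, B and C. Its highest sample was 8.53 times its lowest, the widest range of the 10 genes, and both lay in the electroacupuncture group. The log2 fold change was 0.74 ± 0.85 for model over control (edgeR adjusted p = 0.722) and 0.49 ± 0.85 for electroacupuncture over model (edgeR adjusted p = 0.864), and without electroacupuncture A the second turned to -0.77 ± 0.57. Without model A, model over control was -0.05 ± 1.08.

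Casp1, the protease of the complex, was at 7.46, 3.78 and 4.01 CPM in electroacupuncture A, B and C, at 9.59 and 3.78 CPM in model samples A and B, and at 3.30, 3.30 and 6.05 CPM in controls A, B and C. Model A was high and model B lay within the control range. The model over control was 0.66 ± 0.52 on the log2 scale (edgeR adjusted p = 0.591) and -0.16 ± 0.57 without model A. Electroacupuncture over model was -0.40 ± 0.52 (edgeR adjusted p = 0.807) and 0.42 ± 0.58 without model A. In the annotation Casp1 overlaps LOC134479989 and Tlr3 overlaps LOC134482381; the remaining members, apart from Myd88 and Nlrp3, overlap no annotated gene.

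Counted over the 10 genes, model over control had a positive estimate for all 10, where 51.5% of all genes did. The median log2 fold change was 0.80, against 0.02 over 15487 genes. In edgeR 0 of 10 passed at an adjusted p under 0.05 (0.00646% of all genes did), 2 had an unadjusted p under 0.05 with the model higher, Tlr7 and Nlrp3 (7.61% of all genes), and 0 with the model lower (6.20%). In DESeq2 1 passed with the model higher, Nlrp3 (2.71% of all genes), and 0 with the model lower (2.25%). In 4 of 10, Tlr7, Nfkb1, Nfkbia and Nlrp3, every model sample was above every control, as in 18.2% of all genes, and in 0 of 10 below, as in 19.6% of all genes. The 4 became 9 without model B and 8 without control C. Groups with fewer samples separate more easily, and the share over all genes is not given for these fits.

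For electroacupuncture over model the estimates were split, 5 positive (53.4% of all genes) and 5 negative, with a median of -0.08 against 0.03 over all genes. In edgeR 0 of 10 passed (0.00% of all genes), 1 had an unadjusted p under 0.05, lower (7.18% of all genes), and 0 were higher at that p (6.30%). In DESeq2 1 passed, lower (2.86% of all genes), and 0 higher (1.77%). That gene was Nlrp3 each time, and it was the only member whose electroacupuncture samples all lay below the model (11.7% of all genes); 0 members had all of them above (12.9%). With samples left out, the 1 became 2 without electroacupuncture A, 2 without model A and 4 without model B. The 0 became 1 without electroacupuncture C and 2 without model A. Here too, fewer samples separate more easily and no share over all genes is given.

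Electroacupuncture over control had 9 positive estimates (50.8% of all genes) and a median of 0.50, against 0.01 over all genes. In edgeR 0 of 10 passed (0.00% of all genes), 1 had an unadjusted p under 0.05, higher (Nfkbia, 2.71% of all genes), and 0 were lower at that p (0.956%). In DESeq2 0 of 10 passed (0.00650% of all genes were called higher and 0.00% lower). Tlr7 alone had every electroacupuncture sample above every control, as in 5.98% of all genes, and 0 members had every one below (4.88%). The 1 became 6 without electroacupuncture C, 3 without electroacupuncture B, 3 without control C and 0 with every column as a separate library. The same limit holds for the counts with a sample left out. The comparisons share samples, so their estimates are not independent of each other.

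**Figure D3:**
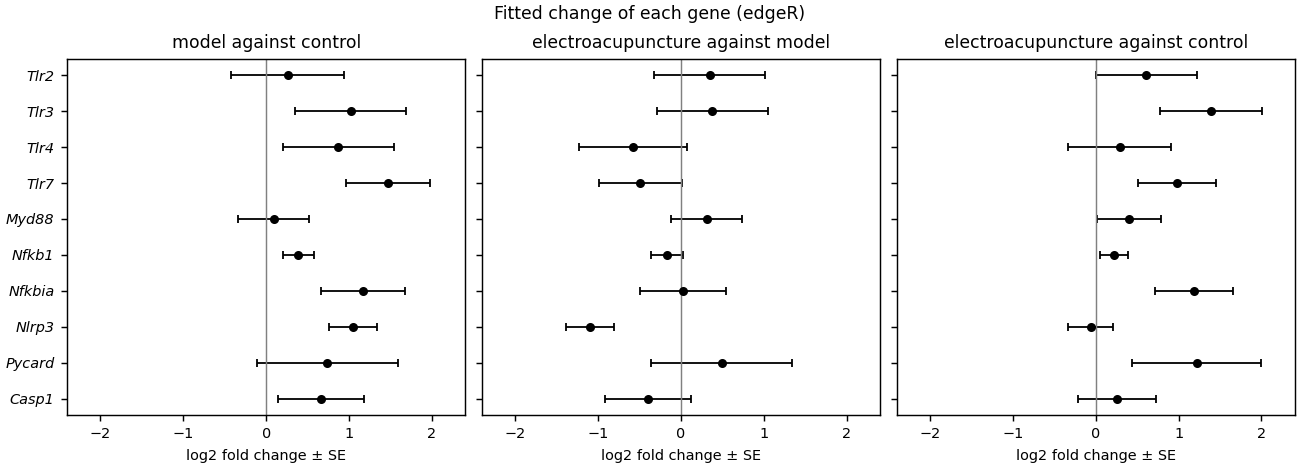
Fitted log2 fold change (x axis) of each gene (rows) in the 3 comparisons, with whiskers for the SE from edgeR; positive values are higher in the group named first. In the comparisons with the model, Nlrp3 has the narrowest whiskers relative to its size, at 1.05 ± 0.29 for model over control and -1.10 ± 0.29 for electroacupuncture over model.

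The highest levels of the members fell in 3 of the 8 samples. Electroacupuncture A was the highest sample for 5 of the 10 genes, model A for 4 and model B for 1. How often each sample was the highest over all genes was not counted. Electroacupuncture A was far from every other column over all genes compared, at a median of 18.9 to 29.4 times the sampling variance. The summed microglial markers were also highest in electroacupuncture A and model A, as the per-sample plot relative to the control mean shows. Astrocyte markers were highest in these samples too, at 6664 and 6140 CPM against 3696 to 5002 CPM in the remaining samples. Neuron markers were lowest there, at 3822 and 5876 CPM against 7292 to 10123 CPM. Endothelial markers were at 310 CPM in electroacupuncture A, their highest, and at 102 CPM in model A. All 14 microglial markers had a positive model over control estimate, with a median log2 fold change of 1.07. Of these, 0 passed in edgeR, 3 were higher at an unadjusted p under 0.05 (7.61% of all genes) and 1 passed in DESeq2 (2.71%). The striatal markers were highest in electroacupuncture A and model A as well, at 4744 and 703 CPM. Oligodendrocyte markers also differed with the groups: their sum was 31843 to 74264 CPM in electroacupuncture, 24518 to 47018 CPM in the model and 42192 to 67126 CPM in controls. All 8 had a negative model over control estimate (median log2 fold change -0.78). In that comparison 0 passed in edgeR or DESeq2 and 1 was lower at an unadjusted p under 0.05 (6.20% of all genes). All 8 had a positive electroacupuncture over model estimate (median 1.07). There 0 passed in edgeR, 2 were higher in DESeq2 (1.77% of all genes) and 5 were higher at an unadjusted p under 0.05 (6.30%). The part of microglial, astrocyte, neuron, endothelial, oligodendrocyte and regional markers in the differences between groups was not tested.

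**Figure D4:**
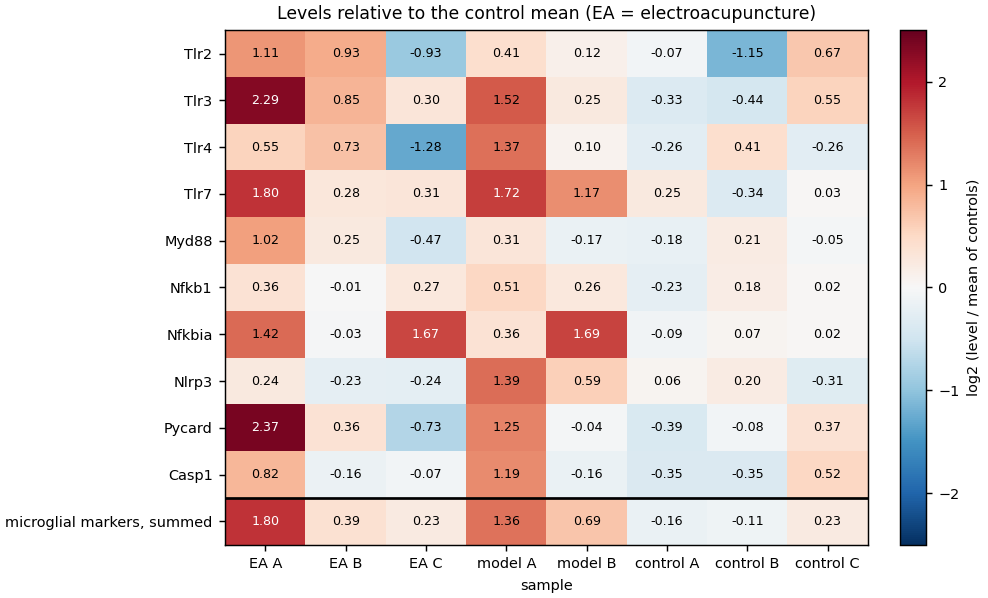
Level of each gene (rows) and of the summed microglial markers (bottom row) in each sample (columns), as log2 of the level over the mean of the 3 controls; red is above and blue below that mean, and each cell prints its value. EA A and model A are the reddest columns for most rows, at 1.80 and 1.36 for the microglial markers, while Nfkbia is high in EA A, EA C and model B.

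Relative to the summed microglial markers, 8 of the 10 genes had a lower mean in the model than in controls, all but Tlr7 and Nfkbia. The divisor itself was higher in the model, at 545 to 868 CPM against 303 to 396 CPM in controls. A gene with an unchanged level is therefore lower on this scale, and the share over all genes was not counted. Tlr7 was at 9.78 ± 0.618 CPM per 1000 CPM of summed microglial markers in electroacupuncture (SD, n = 3), 13.1 ± 0.751 in the model (n = 2) and 9.98 ± 2.64 in controls (n = 3). On this scale the model and control ranges of Tlr7 overlapped, since control A was at 13.0, while both model samples remained above all electroacupuncture samples. Nlrp3 was at 20.2 ± 7.20 in electroacupuncture, 34.6 ± 2.18 in the model and 36.5 ± 10.6 in controls on the same scale. Its model and control samples overlapped there, and all electroacupuncture samples, the highest at 25.5, were below both model samples, the lowest at 33.0. Myd88 was at 11.9 ± 3.05 in electroacupuncture, 8.74 ± 0.841 in the model and 17.2 ± 3.63 in controls, with both model samples below all controls. Tlr3 was at 8.74 ± 1.35 in electroacupuncture, 6.33 ± 1.86 in the model and 6.69 ± 1.65 in controls, with overlapping ranges. These ratios are descriptions and were not tested.

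The rest of the pathway was read from lists of related genes. The shares of all genes at each threshold, given above for the members, apply to these lists as well. Of 11 tested further Toll-like receptors and co-receptors, 9 had a positive and 2 a negative model over control estimate, with a median of 0.78 on the log2 scale. In edgeR 0 of these passed, 1 was higher and 1 lower at an unadjusted p under 0.05, and 0 passed in DESeq2. Tlr6, a partner of TLR2, was at 25.8, 19.3 and 25.3 CPM in electroacupuncture A, B and C, at 61.3 and 51.4 CPM in model samples A and B, and at 26.6, 45.6 and 26.2 CPM in controls A, B and C. Every electroacupuncture sample was below both model samples, with a log2 fold change of -1.27 ± 0.27 (edgeR adjusted p = 0.144, DESeq2 adjusted p = 0.00265). Tlr13, a sensor of bacterial RNA in rodents, was at 15.8, 2.93 and 2.64 CPM in electroacupuncture A, B and C, 9.75 and 3.39 CPM in model samples A and B, and 0.642, 1.93 and 2.29 CPM in controls A, B and C, with a model over control estimate of 2.02 ± 0.92 (edgeR adjusted p = 0.386). Like Tlr7, it was highest in electroacupuncture A and had no control above a model sample. Ly96, the MD-2 partner of TLR4, had a negative estimate: it was at 2.84 and 2.52 CPM in the model and between 3.85 and 5.00 CPM in controls (log2 fold change -0.75 ± 0.30, edgeR adjusted p = 0.332). Cd14, the endotoxin co-receptor, was at 6.59 and 3.23 CPM in the model against 2.73 to 3.85 CPM in controls (0.60 ± 0.41, edgeR adjusted p = 0.544), and Tlr10 was at 0.633 to 1.06 CPM in electroacupuncture against 1.53 to 2.30 CPM in the model (-1.18 ± 0.49, edgeR adjusted p = 0.353). Tlr5, Tlr8, Tlr9 and Tlr12 did not pass the filter and reached at most 0.520 CPM in any sample.

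Among 20 tested adaptors, kinases and interferon factors the model over control estimates were split 10 and 10. Traf3, an adaptor ligase between TRIF and the interferon kinases, was at 39.5, 43.1 and 36.4 CPM in electroacupuncture A, B and C, 54.0 and 71.8 CPM in model samples A and B, and 39.9, 38.6 and 39.6 CPM in controls A, B and C. Both model samples stood above all others, at 0.68 ± 0.16 over control (edgeR adjusted p = 0.172, DESeq2 adjusted p = 0.0171), and electroacupuncture over model was -0.66 ± 0.16 (edgeR adjusted p = 0.169, DESeq2 adjusted p = 0.0200). Irf7, the interferon factor downstream of TLR7, was at 23.2, 8.50 and 15.3 CPM in electroacupuncture A, B and C, 33.3 and 18.2 CPM in model samples A and B, and 6.23, 11.5 and 15.2 CPM in controls A, B and C (model over control 1.23 ± 0.50, edgeR adjusted p = 0.339). Model and control samples of Irf7 did not overlap. Irf8 (1.30 ± 0.94), Sarm1 (0.09 ± 0.19) and Tirap (0.00 ± 0.19) had model over control estimates that did not pass in edgeR (adjusted p = 0.561, 0.859 and 0.993). For Sarm1 and Tirap, every electroacupuncture sample was below every model and every control sample. Electroacupuncture over model was -0.58 ± 0.19 for Sarm1 and -0.43 ± 0.19 for Tirap (edgeR adjusted p = 0.2545 and 0.3767). Electroacupuncture over control was -0.49 ± 0.17 for Sarm1 and -0.42 ± 0.17 for Tirap (edgeR adjusted p = 0.843 for both). Both genes had whole values in all 11 columns. Traf3 was the 1 of 20 that passed in DESeq2 in each of the comparisons with the model, and in edgeR 0 of 20 passed in either; at an unadjusted p under 0.05, 2 were higher in the model than in control and 2 were lower in electroacupuncture than in the model.

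Of 14 tested NF-kB subunits, kinases and inhibitors, 10 had a positive and 4 a negative model over control estimate with a median of 0.16, and 0 passed in edgeR or DESeq2 or had an unadjusted p under 0.05. Rela, the p65 subunit, was at 41.0, 28.4 and 22.5 CPM in electroacupuncture A, B and C, 25.8 and 26.9 CPM in model samples A and B, and 21.9, 23.2 and 26.1 CPM in controls A, B and C. Model and control overlapped (0.15 ± 0.25, edgeR adjusted p = 0.808). Nfkbiz, an inducible nuclear relative of Nfkbia, was at 4.25, 2.25 and 3.69 CPM in electroacupuncture A, B and C, 1.88 and 2.85 CPM in model samples A and B, and 1.47, 1.36 and 1.56 CPM in controls A, B and C. Both operated groups lay above all controls in every sample, with a model estimate of 0.69 ± 0.40 (edgeR adjusted p = 0.476). The model over control estimates were 0.96 ± 0.58 for Bcl3, 0.80 ± 0.57 for Relb, 0.19 ± 0.16 for the kinase Ikbkb and -0.10 ± 0.15 for the kinase Chuk, with edgeR adjusted p between 0.495 and 0.783.

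Of 14 further inflammasome and pyroptosis genes tested, 11 had a positive and 3 a negative model over control estimate, with a median of 0.67; 0 passed in edgeR, 4 were higher at an unadjusted p under 0.05 and 1 passed in DESeq2. That gene was Nlrp1a, a sensor of another inflammasome, at 17.2, 14.7 and 19.5 CPM in electroacupuncture A, B and C, 43.2 and 41.6 CPM in model samples A and B, and 21.3, 29.4 and 18.6 CPM in controls A, B and C. Both model samples stood above all others, at 0.88 ± 0.22 over control (edgeR adjusted p = 0.182, DESeq2 adjusted p = 0.0186) and with electroacupuncture over model at -1.31 ± 0.22 (edgeR adjusted p = 0.135, DESeq2 adjusted p = 8.839e-05). Nlrp1a, Tlr6, Traf3, Casp8, Tlr10, Cd14, Bcl3, Il1rn and Birc3 had fractional values in all 11 columns, as Nlrp3 did. Ninj1, which ruptures the membrane of dying cells, had whole values and was at 15.4, 11.5 and 10.6 CPM in electroacupuncture A, B and C, 16.8 and 16.4 CPM in model samples A and B, and 10.4, 7.73 and 11.5 CPM in controls A, B and C. Its model samples lay above all controls (0.74 ± 0.25, edgeR adjusted p = 0.257). Il18, a substrate of caspase-1, was at 14.2, 5.91 and 5.80 CPM in electroacupuncture A, B and C, 14.4 and 6.46 CPM in model samples A and B, and 3.39, 6.71 and 7.70 CPM in controls A, B and C, with a model over control estimate of 0.81 ± 0.55 (edgeR adjusted p = 0.542). Gsdmd, which encodes the pore protein gasdermin D, was at 12.2, 5.99 and 6.54 CPM in electroacupuncture A, B and C, 10.2 and 4.38 CPM in model samples A and B, and 5.96, 7.39 and 6.51 CPM in controls A, B and C (0.14 ± 0.44, edgeR adjusted p = 0.907). Both followed Casp1 in being high in electroacupuncture A and model A and not in model B. Casp8 was at 1.11 ± 0.45 and Panx1 at 0.60 ± 0.29 for model over control (edgeR adjusted p = 0.338 and 0.401).

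Il1b and Tnf were scarce. Il1b, whose product caspase-1 cleaves, reached at most 0.607 CPM in electroacupuncture, 0.429 CPM in the model and 2.20 CPM in controls, and Tnf reached at most 0.638 CPM in electroacupuncture, 0.107 CPM in the model and 0.641 CPM in controls. Both stayed under the expression filter and were not tested. Of 9 tested NF-kB target genes, 6 had a positive and 3 a negative model over control estimate with a median of 0.58; in edgeR 0 passed, 2 were higher and 1 lower at an unadjusted p under 0.05, and 0 passed in DESeq2. Il1rn was at 2.52, 1.74 and 1.58 CPM in electroacupuncture A, B and C, 6.06 and 2.85 CPM in model samples A and B, and 2.11, 2.16 and 1.92 CPM in controls A, B and C (model over control 1.11 ± 0.41, edgeR adjusted p = 0.299). Both model samples exceeded all others. Birc3, a ubiquitin ligase gene, had a model over control estimate of 1.40 ± 0.59 (edgeR adjusted p = 0.355), Il1a, a cytokine gene with at most 1.28 CPM in any sample, of -1.69 ± 0.71 (edgeR adjusted p = 0.354), and Ptgs2, the inducible cyclooxygenase, of -1.55 ± 0.89 (edgeR adjusted p = 0.469).

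For electroacupuncture over model, positive and negative estimates numbered 3 and 8 among the further receptors, 11 and 9 among adaptors, kinases and interferon factors, 10 and 4 among NF-kB genes, 6 and 8 among further inflammasome genes and 4 and 5 among target genes. In edgeR 0 passed in any of the 5 lists, and at an unadjusted p under 0.05 the lower genes numbered 2, 2, 0, 1 and 1 in that order of lists and 0 were higher. In DESeq2 1 passed, lower, in each of the lists of receptors (Tlr6), adaptors (Traf3) and inflammasome genes (Nlrp1a), and 0 in the others. For electroacupuncture over control the split was 6 and 5, 12 and 8, 13 and 1, 12 and 2, and 5 and 4 in the same order of lists. In edgeR and DESeq2 0 passed there, and at an unadjusted p under 0.05 there were 1 higher receptor gene, 1 higher NF-kB gene and 2 lower adaptor genes. Across these lists and the members, the genes that passed in DESeq2 in a comparison with the model were Nlrp3, Tlr6, Traf3 and Nlrp1a. All of them had fractional values in all 11 columns, as did 3372 of the 15487 genes tested. Casp8, Tlr10, Cd14, Bcl3, Il1rn and Birc3 were fractional too and did not pass. The share of fractional genes among all genes that passed in DESeq2 was not counted.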

How the data were processed

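Per the labels' protocols, libraries were made from poly(A) RNA with a strand mark and read from both ends. The deposited table holds expected counts (estimated counts per gene, up to 2 decimals) without normalization for 18804 rows and 11 columns; column totals were 8668140 to 11920744, and 70.5% to 72.1% of values were whole. The submitters' processing notes name featureCounts 1.5.0-p3, HISAT2 2.0.5, DESeq2 1.16.1 and StringTie 1.3.3b. Their roles, the genome build and any use of the adapters' molecular identifiers were not given in the sources used here. Column names gave the group, not the labelled sample: 4 electroacupuncture, 4 model and 3 control columns, for 4 labelled samples in each of the 3 groups.

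The 4 symbols on a second row were summed, values were rounded, and columns of 1 group whose differences were under 2 times the sampling variance were summed, leaving 8 samples. One fit of all 8 samples and 15487 genes was made with edgeR 4.0.16 under R 4.3.3 (two-sided quasi-likelihood F test with TMM scaling, default filter, robust dispersion, Benjamini-Hochberg over all tested genes; 5 residual degrees of freedom, common coefficient of variation 36.8%) after the scripts had been tested on simulated data; genes with an adjusted p under 0.05 were called. SEs were derived from the F statistic. DESeq2 1.42.0, every column as a separate library, other scalings and filters and leaving out each sample were alternatives. An exact permutation test of 2 against 3 samples cannot give a two-sided p under 0.1. Sequences and gene overlaps are from RefSeq annotation of GRCr8; all 10 symbols matched. The members and gene lists were chosen with earlier results of these data known. Besides the members, named genes were Il1b, Il18, Tnf, Gsdmd, Cd14, Rela and, of each pathway list, up to 3 with the smallest unadjusted p in each comparison with the model; others were chosen after their values were seen.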

Additional observations from a re-analysis of the deposited data

How the results depend on the processing

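The number of genes called depended on the setting. For model against control edgeR called 1 gene; 1129 were called with every column as a separate library, 471 with the replicate block added to that fit, 0 with scaling by total counts, 763 with DESeq2, and 0 to 565 when 1 sample was left out, the highest without electroacupuncture A and 356 without model A. For electroacupuncture against model edgeR called 0 genes; 1666 were called with every column separate, 876 with the replicate block, 698 with DESeq2, and 0 to 308 with 1 sample left out, the highest without model A and 278 without electroacupuncture A. For electroacupuncture against control the count was 0, and 1 with DESeq2. Among the members 0 were called in edgeR, and 1, Nlrp3, was called with every column separate, with the replicate block and with DESeq2 in both comparisons with the model; with 1 sample left out the count was 0 to 1 for model against control (Tlr7 without electroacupuncture A) and 0 for the others.

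Some member estimates changed sign. Electroacupuncture over model for Nfkbia was -0.20 with every column separate and -0.24 with the replicate block, and electroacupuncture over control for Nlrp3 was 0.01 with the block and 0.05 with total counts. With 1 sample left out, log2 fold changes that changed sign ran, for model against control, -0.07 to 0.77 for Tlr2, -0.17 to 0.30 for Myd88, -0.05 to 1.24 for Pycard and -0.16 to 1.18 for Casp1. For electroacupuncture against model they ran -0.40 to 1.15 for Tlr3, -1.08 to 0.18 for Tlr4, -0.13 to 0.59 for Myd88, -0.50 to 0.83 for Nfkbia, -0.77 to 1.27 for Pycard and -0.92 to 0.42 for Casp1. For electroacupuncture against control they ran -0.05 to 0.67 for Tlr4, -0.05 to 0.70 for Myd88, -0.23 to 0.05 for Nlrp3, -0.04 to 1.68 for Pycard and -0.12 to 0.62 for Casp1. The cause of these changes was not tested. Over all alternatives, 409 member estimates kept their direction and side of the threshold, 25 changed sign and 7 newly passed. Columns with the same number correlated at -0.16 to 0.17 between model and control, -0.15 to 0.19 between electroacupuncture and model, and 0.15 to 0.19 in the 3 pairs of electroacupuncture and control. Every pair was over 0.1 only in the last of these, where the replicate block left the count of calls at 0. With 8 in place of 14 microglial markers, the differences between group means in the members' levels relative to them moved by less than the spread between samples. Tlr4, with 3 to 37 counts per sample, is limited by depth as well as by the number of samples.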
